A study of Mus musculus with 6 samples.

Results

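The genes described here are 9 tendon genes measured in whole tibialis anterior muscle, namely the tendon transcription factors Scx, Mkx and Egr2 and the tendon markers Tnmd, Comp, Thbs4, Tnc, Chad and Cilp. They were taken by their gene symbols from the array's annotation, and all 9 had a value among the 22180 genes represented by a probe set that names 1 gene. Each of the 9 had a single such probe set. The series compares muscle after surgical removal of the testes, which make most of the androgen in the blood, with muscle after a sham operation. The castrated group held 3 samples from male C57Bl/6 mice operated on at 11 weeks of age, killed at 18 weeks after 7 weeks of recovery, and labelled refed. The sham group held 3 samples from male C57Bl/6 mice of the same ages, labelled fasted. All mice had fasted overnight. The study's design text gives a 30 minute meal to some mice and 4 further hours without food to all, whereas the protocol attached to each sample gives the meal to every mouse. Surgery and feeding label divide the samples in the same way, so their parts in any difference below cannot be told apart. The labels name a mouse for each sample without saying that the animals differ, so the errors and p-values below cover the spread among the samples only.

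Tendon cells are fibroblasts that lay down parallel collagen fibrils between muscle and bone. Scx, a basic helix-loop-helix factor, marks tendon progenitors from early development, and Mkx and the Egr factors act with it or after it to switch on collagen and the late marker Tnmd. TGF-beta signalling and mechanical load are known inducers of this programme. In a muscle sample such transcripts can come from the tendon ends, the myotendinous junction, the aponeurosis and connective tissue sheaths. The tissue label was checked with 12 genes of fast skeletal muscle, among them the fast myosin Myh1 and the fast troponin Tnni2, and all 12 lay at or above the 99.6th percentile of mean array value.

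The sequences just upstream of 4 genes, each with its lowest value of all 6 samples in sham sample 3, are shown so that they can be read beside those values. Egr2, Mkx and Comp also had their lowest values there and are not shown. Egr2 has several annotated starts, and Mkx and Comp were not among the genes with a promoter sequence. The sequences shown are the 250 bases before the annotated start, from RefSeq on build GRCm38.p6, 5′ to 3′ on the strand of the gene. Capitals mark E-boxes, the CANNTG motif that basic helix-loop-helix factors such as SCX bind, which reads the same on both strands. Chad is at chr11:94564797-94565046 (plus strand), Tnmd at chrX:133850758-133851007 (plus strand), Thbs4 at chr13:92794819-92795068 (minus strand) and Tnc at chr4:64047016-64047265 (minus strand, the first of 2 starts).
Chad: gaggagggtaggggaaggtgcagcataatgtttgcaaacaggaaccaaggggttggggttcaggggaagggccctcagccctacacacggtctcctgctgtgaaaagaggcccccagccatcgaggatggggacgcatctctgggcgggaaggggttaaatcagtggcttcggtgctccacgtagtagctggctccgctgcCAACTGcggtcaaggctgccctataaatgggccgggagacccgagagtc
Tnmd: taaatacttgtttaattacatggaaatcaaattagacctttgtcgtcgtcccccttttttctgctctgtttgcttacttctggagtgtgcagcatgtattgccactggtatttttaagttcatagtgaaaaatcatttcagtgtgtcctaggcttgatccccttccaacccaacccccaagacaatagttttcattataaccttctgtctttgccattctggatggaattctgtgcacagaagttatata
Thbs4: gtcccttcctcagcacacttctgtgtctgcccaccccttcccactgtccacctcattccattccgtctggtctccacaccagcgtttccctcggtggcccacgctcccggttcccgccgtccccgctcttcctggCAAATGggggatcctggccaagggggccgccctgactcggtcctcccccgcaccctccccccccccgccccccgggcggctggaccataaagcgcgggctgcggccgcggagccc
Tnc: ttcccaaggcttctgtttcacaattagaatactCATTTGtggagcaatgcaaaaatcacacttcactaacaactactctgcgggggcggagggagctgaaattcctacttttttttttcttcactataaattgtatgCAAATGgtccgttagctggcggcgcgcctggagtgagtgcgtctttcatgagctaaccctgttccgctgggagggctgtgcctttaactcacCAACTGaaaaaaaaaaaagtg

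E-boxes numbered 3 in the Tnc window, 1 each in those of Chad and Thbs4, and 0 in that of Tnmd, and 66.2% of all 32851 windows of this length hold at least 1. All motifs were searched on both strands and counted independently of each other. The SMAD motif CAGAC was found at 2 places in the Thbs4 window and in none of the other 3 windows, against 42.2% of all windows. The EGR motif GCGNGGGCG occurred in the Tnc window, from position −171 relative to the start, against 4.7% of all windows. A TATAAA motif began at position −28 for Chad and −126 for Tnc, against 12.4% of all windows. None of these motifs was found in all 4 windows. The counts and positions for Tnc depend on the start used. The window of its second start, not shown, held 2 E-boxes and 1 SMAD motif, from position −70. There the EGR motif began at −250 and the TATAAA motif at −205.

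Of the 9 genes, 7 averaged higher and 2 lower in castrated than in sham muscle, and none passed the test over all genes (limma with Benjamini-Hochberg adjustment, threshold 0.05). That test called 3 of 22180 genes, or 0.0135%. At an unadjusted p under 0.05 there were 2 of the 9, Mkx and Comp, where 7.13% of all genes were. The median log2 difference, castrated minus sham, was 0.37 for the 9 genes and −0.0056 for all genes, and 48.5% of all genes lay above 0. Without sham sample 3 the median of the 9 was 0.11, with 7 still higher, and without sham sample 1 it was 0.55. The 9 differences ran from −0.29 for Cilp to 0.66 for Chad. Fewer tendon cells in a sample and less RNA per tendon cell cannot be told apart in whole muscle.

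**Figure D1:**
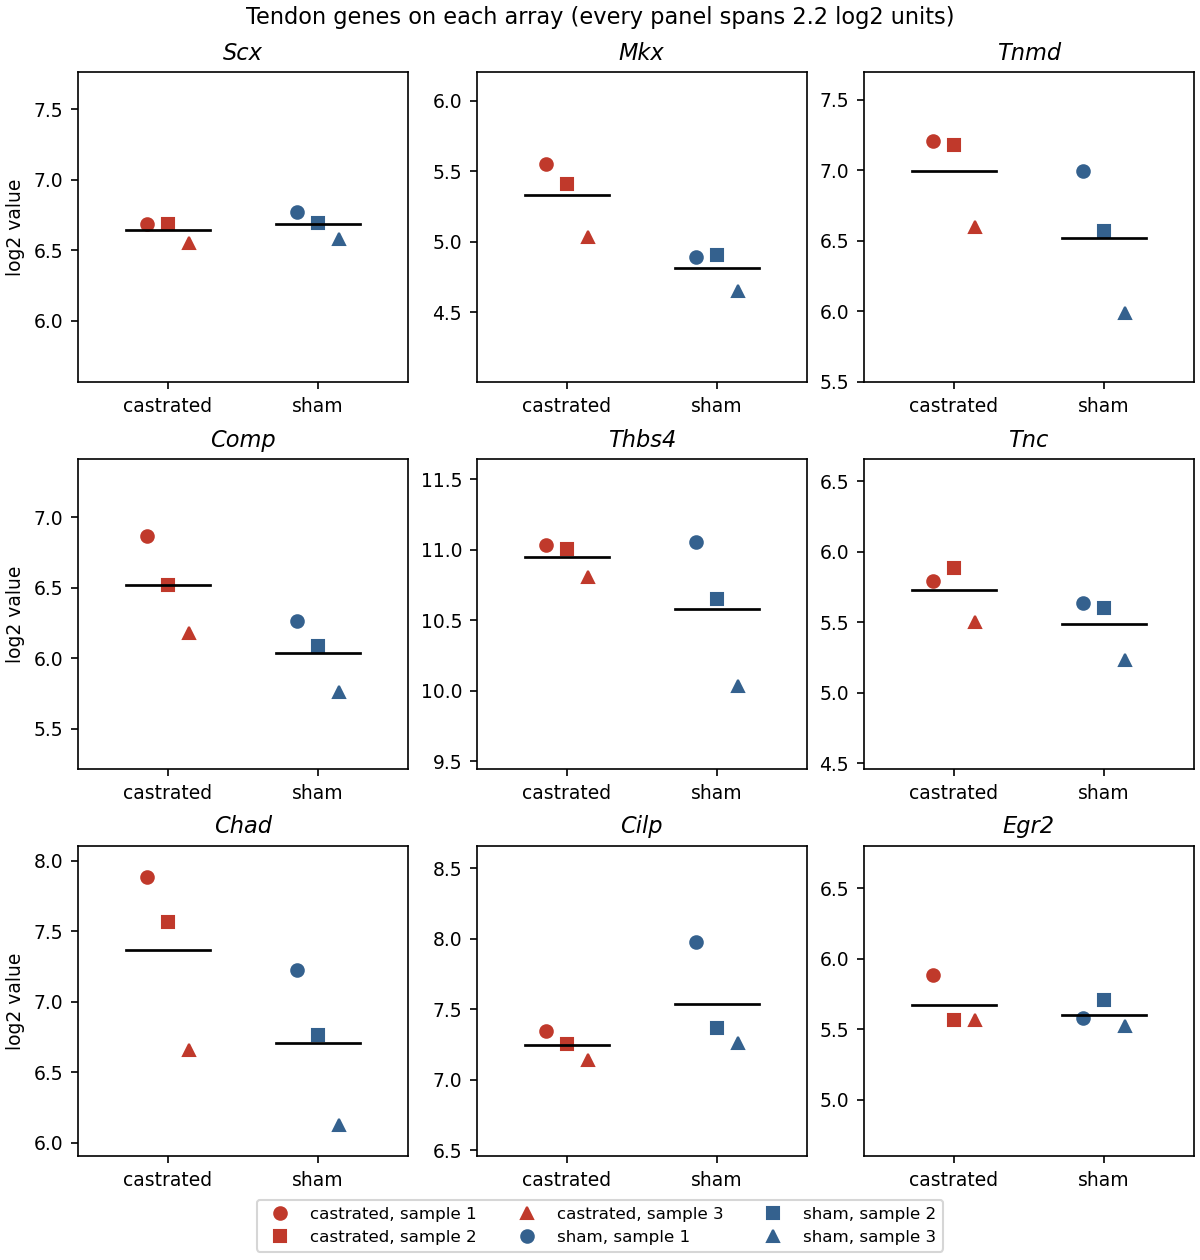
Deposited log2 values of the 9 tendon genes on the 6 arrays, with castrated samples (red) left of sham samples (blue), a marker shape for each sample number and a bar at the group mean of 3. Every panel spans the same log2 range. Mkx is the only gene of the 9 whose castrated values, 5.03 to 5.55, all lie above its sham values, 4.65 to 4.91.

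Among the transcription factors, Mkx had the largest difference, which did not pass the test, and Scx and Egr2 had smaller ones. The differences were not tested against each other. Mkx (Entrez 210719), a homeobox factor needed for tendon collagen fibrils in mice, had log2 values of 5.55, 5.41 and 5.03 in castrated samples 1 to 3 and 4.89, 4.91 and 4.65 in sham samples 1 to 3. The groups did not overlap, which was so for 1 of the 9 genes and for 12.8% of all genes, and for 5.73% with the castrated samples higher. Its mean was 5.33 ± 0.27 in castrated and 4.82 ± 0.14 in sham muscle (SD, n = 3 each), or 1.43-fold higher, with a 95% interval of 1.13 to 1.80. The log2 difference was 0.52 with a standard error of 0.15, and it did not pass (limma adjusted p = 0.596, unadjusted p = 0.00693). All 3 sham values of Mkx were below the medians of their arrays (5.04), and its value in castrated sample 3, 5.03, was below that array's median, 5.08. No test was made of whether the Mkx values exceeded background.

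Scx (Entrez 20289), the factor that marks tendon progenitors, had values of 6.68, 6.69 and 6.55 in castrated samples and 6.77, 6.70 and 6.58 in sham samples. The groups overlapped and all 6 values lay within 0.22 of each other, the narrowest range of the 9 genes. The log2 difference was −0.043 (standard error 0.10, limma adjusted p = 0.952), with a 95% interval of −0.27 to 0.19. On the fold scale that interval runs from 0.83 to 1.14. Leaving out sham sample 1 or castrated sample 3 turned the sign, to 0.0020 and 0.0023.

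Egr2 (Entrez 13654), a zinc-finger factor that acts in embryonic tendon and is also an immediate early gene and a regulator of Schwann cell myelination, had values of 5.88, 5.56 and 5.56 in castrated samples and 5.58, 5.71 and 5.52 in sham samples. These overlapped, and the highest castrated value stood apart from the other 2. The difference was 0.069 (standard error 0.12, limma adjusted p = 0.929), with a 95% interval of −0.20 to 0.34. Without castrated sample 1 it was −0.036. Its homologues Egr1, Egr3 and Egr4 differed by −0.45, −0.10 and −0.096, and none of them passed (limma adjusted p from 0.786 to 0.922).

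The late marker Tnmd (Entrez 64103), a type II transmembrane glycoprotein that is used to identify mature tendon cells, had values of 7.21, 7.18 and 6.60 in castrated samples and 6.99, 6.57 and 5.99 in sham samples. The lowest castrated value lay below the highest sham value, so the groups overlapped. The means were 7.00 ± 0.34 and 6.52 ± 0.51 in castrated and sham muscle (SD, n = 3 each), a log2 difference of 0.48 (standard error 0.25, limma adjusted p = 0.751) with a 95% interval of −0.094 to 1.05. Without sham sample 3 the difference was 0.21, and without sham sample 1 it was 0.72. Cnmd, the cartilage homologue of Tnmd, differed by 0.018 (standard error 0.15, limma adjusted p = 0.985) and was dim, at the 22.5th percentile of mean array value.

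Comp and Thbs4 encode pentameric thrombospondins that bind collagen. Comp (Entrez 12845) had values of 6.87, 6.52 and 6.18 in castrated samples and 6.26, 6.09 and 5.76 in sham samples. Only castrated sample 3 and sham sample 1 crossed, by less than 0.1. The log2 difference was 0.48, or 1.40-fold, with a 95% interval of 1.04 to 1.88 on the fold scale (log2 standard error 0.19, unadjusted p = 0.0307, limma adjusted p = 0.685). It was 0.31 without castrated sample 1. Thbs4 (Entrez 21828), which is concentrated at the myotendinous junction, had values of 11.04, 11.01 and 10.81 in castrated samples and 11.06, 10.65 and 10.03 in sham samples. The highest of the 6 values was a sham value, and the sham samples spread over a range of more than 1 log2 unit. The difference was 0.37 (standard error 0.22, limma adjusted p = 0.780), 0.099 without sham sample 3 and 0.61 without sham sample 1. The other thrombospondins Thbs1, Thbs2 and Thbs3 differed by −0.63, −0.078 and −0.12, and none passed (limma adjusted p from 0.744 to 0.947).

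The remaining matrix genes were split. Chad (Entrez 12643), chondroadherin, a leucine-rich protein of cartilage and tendon that binds cells through integrin, had values of 7.88, 7.56 and 6.66 in castrated samples and 7.22, 6.76 and 6.13 in sham samples. Castrated sample 3 lay below 2 of the sham samples. The difference of 0.66 was the largest of the 9, and so was its standard error of 0.34 (limma adjusted p = 0.745, 95% interval −0.10 to 1.43). It was 0.37 without sham sample 3 and 1.02 without castrated sample 3.

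Tnc (Entrez 21923), tenascin-C, an adhesion-modulating matrix glycoprotein of tendon and of the myotendinous junction, had values of 5.80, 5.88 and 5.51 in castrated samples and 5.64, 5.60 and 5.23 in sham samples. The groups overlapped, with a difference of 0.24 (standard error 0.15, limma adjusted p = 0.782) that was 0.11 without sham sample 3. The related tenascins Tnxb, Tnr and Tnn differed by −0.19, −0.34 and −0.018. The castrated and sham values of Tnxb and of Tnr did not overlap, castrated being lower, and neither passed (limma adjusted p = 0.756 and 0.671). Tnr was dim, at the 16.4th percentile of mean array value, and no test was made of whether it exceeded background.

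Cilp (Entrez 214425), a secreted cartilage intermediate layer protein that binds TGF-beta, stood opposite to the other matrix genes. Its values were 7.34, 7.25 and 7.14 in castrated samples and 7.98, 7.36 and 7.26 in sham samples. Sham sample 1 was high, and sham sample 3 lay within the castrated range. The difference was −0.29, or 1.22-fold lower (standard error 0.18, limma adjusted p = 0.786), and only −0.066 without sham sample 1. Its homologue Cilp2 differed by 0.32 (standard error 0.18, limma adjusted p = 0.762).

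**Figure D2:**
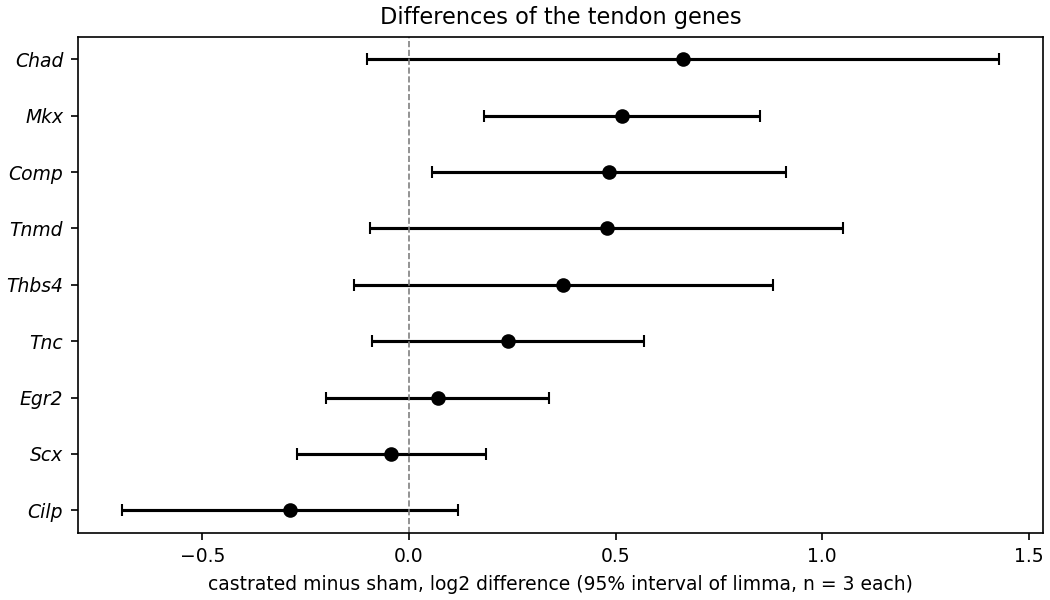
Log2 difference, castrated minus sham, of each tendon gene with its 95% interval from limma (n = 3 each), ordered by size. The intervals of Mkx and Comp lie above 0 and those of the other 7 genes hold 0.

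All of these genes but Scx varied more between samples of the same group than the median gene did. The median within-group SD was 0.29 for the 9 genes and 0.15 for all genes. By within-group SD, Chad lay at the 99.7th percentile of all genes, Tnmd at the 98.3rd, Thbs4 at the 96.7th, Comp at the 92.7th and Cilp at the 90.9th. Mkx lay at the 78.4th, Tnc at the 77.0th, Egr2 at the 50.3rd and Scx at the 17.7th percentile. The factor Scx was thus among the steadier genes on these arrays, while the markers Chad and Tnmd were among the most variable.

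Across the arrays the genes shared their lowest samples, though not their whole profile, since Cilp was highest in sham sample 1 and Scx hardly varied. Sham sample 3 was the lowest sham sample for 9 of 9 genes, where it was so for 36.0% of all genes. Castrated sample 3 was the lowest castrated sample for 9 of 9 genes, against 31.2% of all genes, although for Egr2 it was below castrated sample 2 by less than 0.001. Both held at once for 12.2% of all genes. Genes of other lists shared parts of this, since sham sample 3 was the lowest sham sample for 11 of 12 skeletal muscle markers, and castrated sample 3 the lowest castrated sample for 8 of 12 fibro-adipogenic progenitor markers. The corresponding counts were 3 of 12 muscle markers for castrated sample 3 and 5 of 12 progenitor markers for sham sample 3. Sham sample 3 was the lowest of all 6 samples for 7 of the 9 genes (19.1% of all genes), the exceptions being Scx and Cilp. The 9 genes share the RNA of each sample, so they are not separate observations of it, and no test was made of these counts.

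**Figure D3:**
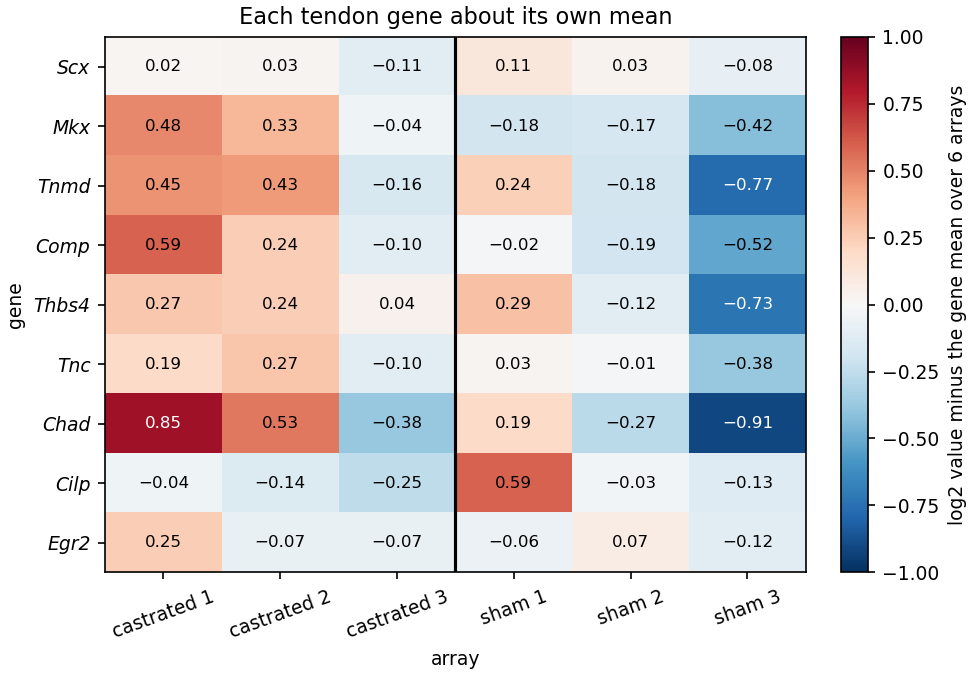
Log2 value of each tendon gene minus its own mean over the 6 arrays, with castrated samples left of the line and sham samples right of it. Sham sample 3 holds the lowest value of 7 genes, down to −0.91 for Chad, and castrated sample 1 the highest of 5 genes, up to 0.85 for Chad.

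With every gene centred on its own mean, the average of the 9 genes was 0.34, 0.21 and −0.13 in castrated samples 1 to 3 and 0.13, −0.096 and −0.45 in sham samples 1 to 3. The castrated and sham averages therefore overlapped. The genes outside the 9 whose centred values were nearest to this average, by root-mean-square distance over the 6 arrays, were Ifi207 (0.032), Krt25 (0.046), Acrv1 (0.046), Apln (0.067), Smarcd1 (0.067) and Dio3os (0.067), where the median gene lay at 0.29. Apln encodes the peptide apelin, Krt25 a hair keratin and Smarcd1 a subunit of the SWI/SNF chromatin remodelling complex. Ifi207, Krt25 and Acrv1 were under the array medians on every array. None of the 6 passed (limma adjusted p from 0.749 to 0.818), and among so many genes some lie near any profile. Of the 9 genes, Tnc was nearest to the average of which it is part (0.093), and Chad (0.33) and Cilp (0.32) were farthest.

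The collagens and fibril regulators that tendon cells make stood on the same side as the tendon markers. Of 20 measured genes 17 were higher and 3 lower in castrated muscle, with a median log2 difference of 0.17, and 0 passed the limma test over all genes, while 5 had an unadjusted p under 0.05. With a sample left out, 15 to 18 were higher and the median ran from 0.13 to 0.28, the top value without castrated sample 3. Kera, the proteoglycan keratocan, had values of 6.99, 7.22 and 6.89 in castrated samples and 6.44, 6.09 and 5.89 in sham samples, a difference of 0.89 (standard error 0.15, limma adjusted p = 0.373). Col14a1, a fibril-associated collagen, had 5.93, 5.99 and 5.81 in castrated samples and 5.57, 5.41 and 5.28 in sham samples, a difference of 0.49 (standard error 0.11, limma adjusted p = 0.449). For these 2 genes the groups did not overlap. Col1a1, the main collagen chain of tendon, had 10.12, 9.75 and 8.94 in castrated samples and 9.23, 8.71 and 8.25 in sham samples, a difference of 0.87 with overlapping groups (standard error 0.31, limma adjusted p = 0.668). Sham sample 3 was the lowest sham sample for 14 of the 20, and castrated sample 3 the lowest castrated sample for 14 of the 20. Summed over the list on the linear scale, the signal was 8829 to 11200 in castrated and 8111 to 10264 in sham samples, so the sums overlapped.

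Other genes of tendon and tendon sheath cells were divided, with 8 of 14 higher and 6 lower, a median of 0.11 and 0 passing the limma test (4 at an unadjusted p under 0.05). The median of this list was −0.042 without sham sample 2, so its direction rests on that sample. Abi3bp, which encodes a matrix protein, was higher by 0.38 (standard error 0.13), the WNT inhibitor Wif1 by 0.31 (standard error 0.12) and Ecrg4 by 0.44 (standard error 0.17), with limma adjusted p between 0.668 and 0.685. The castrated values of Abi3bp (7.67, 7.79 and 7.51) all lay above its sham values (7.49, 7.30 and 7.04), and those of Wif1 (6.66, 6.46 and 6.48) above its sham values of 6.31, 6.33 and 6.02. Htra3, also at an unadjusted p under 0.05, went the other way, by −0.28 (standard error 0.12, limma adjusted p = 0.696). Its castrated values (6.94, 7.05 and 7.30) all lay below its sham values (7.47, 7.31 and 7.34). Genes of the homologous families of the 9 showed the other balance, with 3 of 13 higher, 10 lower, a median of −0.096 and 0 passing (1 at an unadjusted p under 0.05). Without sham sample 1 that median was −0.060 with 6 of 13 higher, and without sham sample 3 it was −0.17.

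Genes of the TGF-beta and GDF signals that induce tendon were near the median of all genes. Of 17 measured 7 were higher and 10 lower, with a median of −0.026 and 0 passing the limma test (1 at an unadjusted p under 0.05). With a sample left out the median ran from −0.053 without sham sample 3 to −0.0028 without sham sample 1. Ltbp1, which tethers latent TGF-beta in the matrix, differed by −0.27, and the TGF-beta feedback inhibitors Smad7 and Skil by −0.26 and −0.21 (limma adjusted p from 0.680 to 0.750). The castrated values of Ltbp1 (6.42, 6.19 and 6.37) lay below its sham values (6.59, 6.56 and 6.64).

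Genes listed for the myotendinous junction, where Thbs4 and Tnc are also found, were more often lower than higher. Of 13 measured 4 were higher and 9 lower, with a median of −0.094 and 0 passing the limma test (1 at an unadjusted p under 0.05). The median was −0.011 without castrated sample 2 and −0.035 without sham sample 1, each with 6 of 13 higher. Itga7, the muscle integrin of that junction, had 8.32, 8.31 and 8.48 in castrated samples and 8.77, 8.74 and 8.53 in sham samples, a difference of −0.31 (standard error 0.11, limma adjusted p = 0.668). The adhesion proteins vinculin, Vcl, and paxillin, Pxn, differed by −0.21 and −0.14 (limma adjusted p = 0.786 and 0.792), and for these 3 genes the groups did not overlap. The 4 higher genes, Col22a1, Tln2, Parva and Bcam, differed by 0.085, 0.029, 0.12 and 0.20, with overlapping groups (limma adjusted p from 0.801 to 0.969). Whether this list reflects the junction or the whole muscle fibre was not tested.

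**Figure D4:**
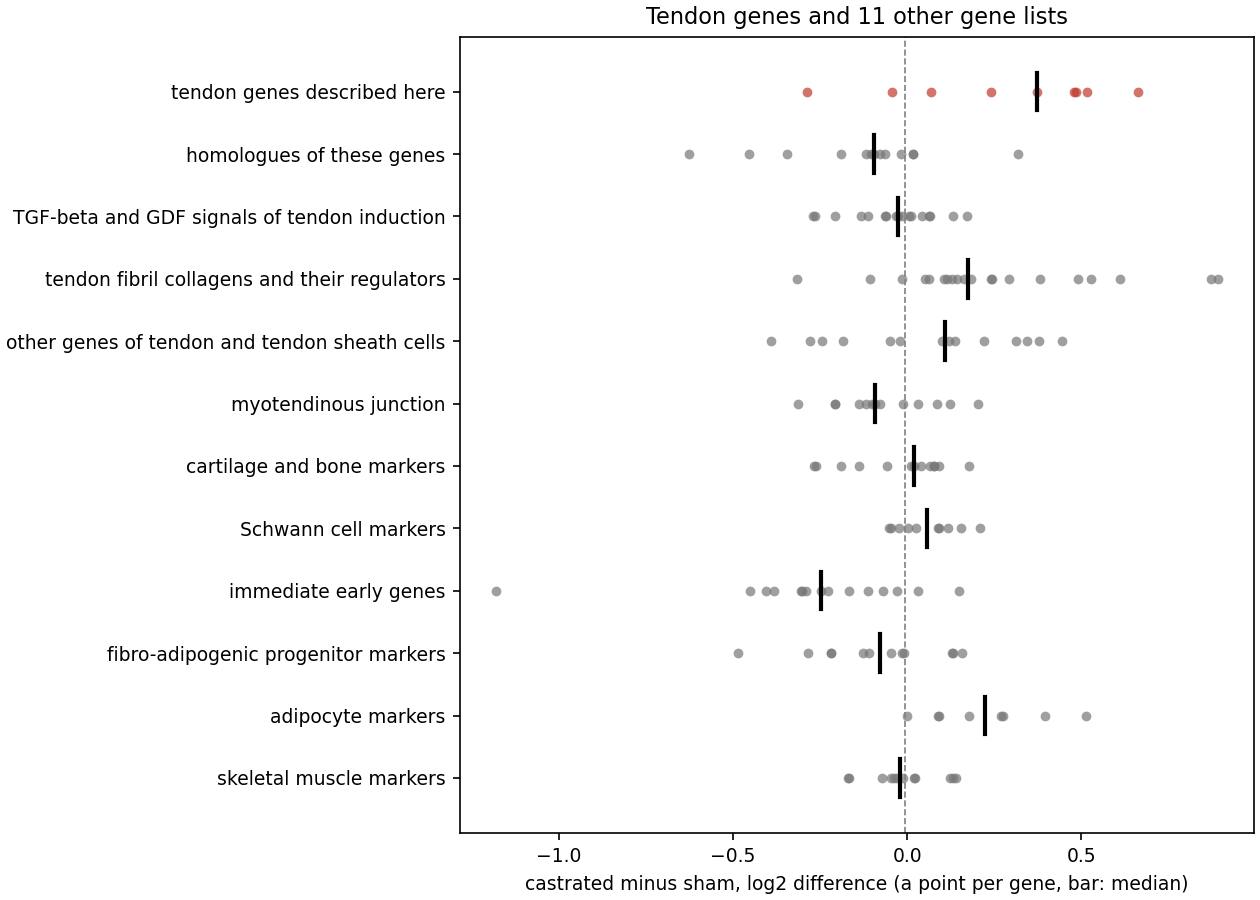
Log2 difference, castrated minus sham, of every measured gene in 12 lists, with a bar at each list's median and a dashed line at the median of all genes, −0.0056. The tendon genes have the highest median, 0.37, and the immediate early genes the lowest, −0.25, although without sham sample 3 the tendon median, 0.11, is below those of the adipocyte markers, 0.30, and the collagens, 0.13. No gene shown passed the test over all genes.

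Markers of other cell types were set beside these values. Cartilage and bone markers were higher for 8 of 13, with a median of 0.020, 0 passing and 0 at an unadjusted p under 0.05. That median changed sign with samples left out, being −0.031 with castrated sample 1 left out and 0.058 with castrated sample 2 left out. Of the markers, 9 lay under the 50th percentile of mean array value, and their summed linear signal was 537 to 617 in castrated and 570 to 600 in sham samples. The cartilage factor Sox9 differed by −0.26, the hypertrophic collagen Col10a1 by −0.27 and the bone sialoprotein Ibsp by 0.18 (limma adjusted p from 0.752 to 0.794). Markers of Schwann cells, in which Egr2 drives myelination, were higher for 7 of 10, with a median of 0.057, 0 passing and 0 at an unadjusted p under 0.05. Leaving out castrated sample 1 gave a median of 0.0036, and leaving out castrated sample 2 gave 0.13. Their sum was 611 to 715 in castrated and 584 to 656 in sham samples, and S100b, Mal and Pmp22 differed by 0.21, 0.15 and 0.091 (limma adjusted p from 0.758 to 0.906). The lower markers Mbp, Drp2 and Ncmap differed by −0.048, −0.025 and −0.051, and Sox10 differed by 0.0014. S100b was dim, at the 21.9th percentile of mean array value. Castrated sample 1, which had the highest Egr2 value, also had the highest average centred Schwann cell marker level, 0.14, and the part of the one in the other was not tested.

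Markers of fibro-adipogenic progenitors, the main resident fibroblasts of muscle, were higher for 3 of 12 and lower for 9, with a median of −0.079, 0 passing and 2 at an unadjusted p under 0.05. Without sham sample 1 the median was 0.037 and 7 of 12 were higher, so the direction of this list rests on that sample, and without sham sample 3 it was −0.18. Pi16 and Gsn differed by −0.49 and −0.28 with groups that did not overlap, and Pdgfra by −0.22 (limma adjusted p from 0.583 to 0.797). Their summed signal was 6853 to 7915 in castrated and 7075 to 8902 in sham samples. Sham sample 1, in which Cilp was high, had the highest average centred level of these markers, 0.25, and its part in the Cilp value was not tested. Adipocyte markers were higher for 7 of 8, with a median of 0.22, 0 passing and 2 at an unadjusted p under 0.05. Their sum did not overlap between groups, at 2673 to 2842 in castrated and 2036 to 2508 in sham samples. Most of that sum comes from Fabp4, the only gene of the 8 above the 75th percentile of mean array value. Singly, the groups did not overlap for 2 of the 8, Pparg and Fabp4, with castrated higher, where 5.73% of all genes did so. Pparg, Fabp4 and Lep differed by 0.40, 0.28 and 0.51 (limma adjusted p from 0.658 to 0.713), and Cidec by −5.7e-05. Lep was dim, at the 25.7th percentile of mean array value. On the array of each group where the tendon genes were lowest, castrated sample 3 and sham sample 3, the average centred adipocyte level was 0.11 and 0.016. The part of other cell types in the tendon gene values was not tested.

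Immediate early genes, a class to which Egr2 belongs, were lower in castrated muscle for 13 of 15, with a median of −0.25, 0 passing the limma test and 4 at an unadjusted p under 0.05. The median was −0.14 without sham sample 1 and −0.16 without castrated sample 2. Fos had values of 5.72, 5.28 and 5.06 in castrated samples and 7.24, 6.35 and 6.00 in sham samples, a difference of −1.18 (standard error 0.29, limma adjusted p = 0.486). Maff and Ier3 differed by −0.41 and −0.38, also with groups that did not overlap (limma adjusted p = 0.489 and 0.685). The difference of Egr2, 0.069 (standard error 0.12), had the opposite sign to most of this list, but it was −0.036 without castrated sample 1. The skeletal muscle markers used to check the tissue were higher for 5 of 12, with a median of −0.022, 0 passing and 0 at an unadjusted p under 0.05. That median was 0.011 without sham sample 1 and −0.060 without sham sample 3. Myh1, Tnni2 and the fast fibre actinin Actn3 differed by −0.17, −0.17 and 0.13 (limma adjusted p from 0.766 to 0.823).

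**Figure D5:**
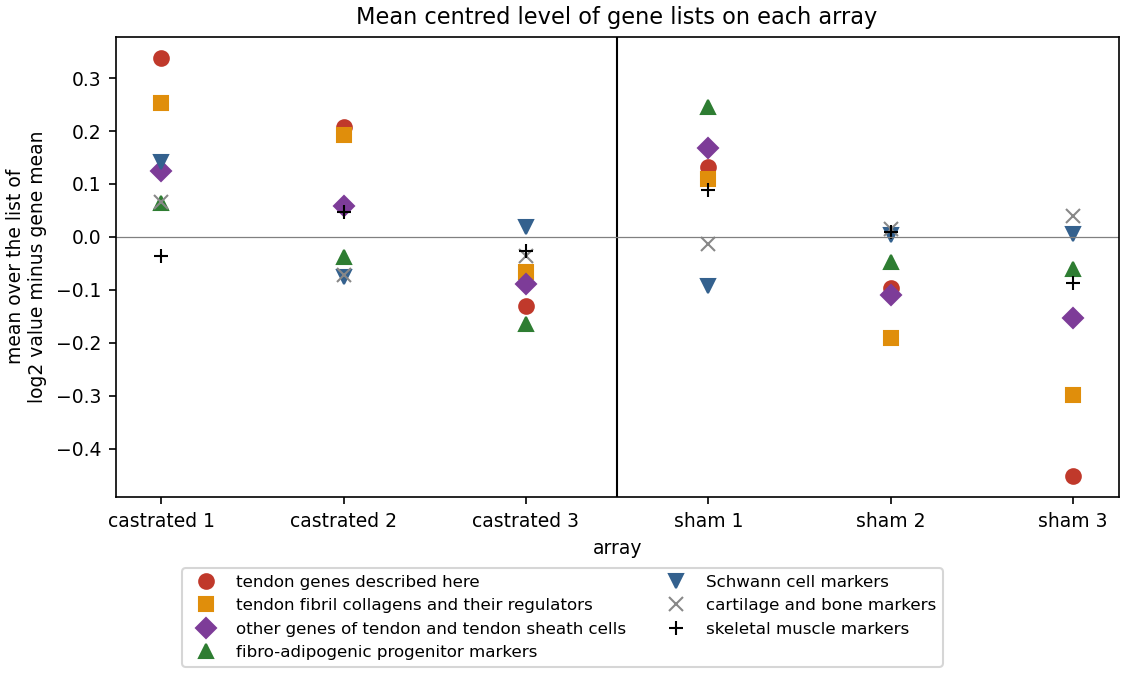
Average over each gene list of the log2 value minus the gene's own mean, on each array, with castrated samples left of the line. The tendon genes run from 0.34 in castrated sample 1 down to −0.45 in sham sample 3, and the collagen list from 0.25 down to −0.30, the other tendon and sheath genes lie between −0.15 and 0.17, the fibro-adipogenic progenitor markers between −0.16 and 0.25, and the cartilage, Schwann cell and skeletal muscle markers between −0.093 and 0.14.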

How the data were processed

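The deposited values are log2 expression per probe set, normalized by the authors. Per the labels' protocols, total RNA was extracted from about 25 mg of muscle with DNase treatment, and 300 ng was biotin-labelled for Affymetrix whole-transcript arrays. The submitters' processing notes name Partek, with no version, and how background, probe summary and normalization were handled is not given in the sources used here. The 6 arrays had medians of 5.04 to 5.10 and correlated at 0.9895 to 0.9924. With 3 arrays in each group the precision is limited.

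Of 41345 probe sets, 23521 carry 1 gene symbol, 1814 several and 16010 none. Symbols were updated through Entrez identifiers, matching 23328 probe sets to a gene table of GRCm38.p6. Each gene took its probe set with the highest mean, with no filter on dim genes. Groups follow the titles. Castrated minus sham was fitted over all 22180 genes with limma 3.58.1 in R 4.3.3 (lmFit, eBayes, no covariate), and the procedure was tested on simulated data. Figures used matplotlib 3.10.9.

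The 9 genes and the 11 other lists were chosen with earlier results of these data known. The lists hold 153 genes, of which 146 were measured, and they are described by counts and medians without a set test. All 9 genes are named, as are the 3 genes of smallest p in each list and the 6 genes nearest to the average profile, leaving out unnamed gene models, olfactory receptors and small RNAs. Same-numbered castrated and sham samples had deviations from their group means that correlated at 0.076, 0.033 and 0.047. Samples of unlike number correlated at −0.045 to 0.0018. The numbers were not taken as pairs in the main fit because the design does not give them as such, and a fit with them as blocks is in the closing section. Promoter sequences came from RefSeq's GRCm38.p6 for 6 of the genes, namely Tnmd, Chad, Thbs4, Tnc, Cilp and Egr2. Alternatives are given in the closing section.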

Additional observations from a re-analysis of the deposited data

How the results depend on the processing

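Under 17 alternatives none of the 9 genes passed the threshold, and 149 of 152 values kept their sign. The exceptions were Scx, which ran from −0.0943 to 0.00228 with a sample left out and was 0.00203 without sham sample 1, and Egr2, which ran from −0.0364 to 0.122. The count of higher genes, 7 as reported, was 6 to 8 under the alternatives. The median of the 9 differences, 0.373 as reported, ran from 0.111 without sham sample 3 to 0.554 without sham sample 1. Leaving out samples was added for the medians of the 11 other lists after seeing the data. The genes called of all genes, 3 as reported, numbered 9 when the dimmest genes, up to the 25th percentile, were left out, 16 up to the 50th, 10 with a trended and robust variance prior and 0 without variance moderation, where 1412 had an unadjusted p under 0.05. With a sample left out, 3 to 4 genes were called. The count of the 9 whose groups do not overlap, 1 as reported, was 0 above the 50th percentile, because Mkx lies below it and is not tested there, and 1 to 5 with a sample left out, where 21.9% to 24.1% of all genes did not overlap. Leaving out castrated sample 3 gave 5, sham sample 1 gave 4, sham sample 3 gave 3 and castrated sample 1 gave 2.

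With the replicate number of the titles as a block (a replicate block), 2 genes were called of all genes and 0 of the 9. Every sample's deviations correlated best with those of its own number, at 0.033 to 0.076, a hint from the data and not the design. Each of the 9 had a lower standard error under the block than without it. Chad had 0.10 (limma adjusted p = 0.451), Mkx 0.10 and Comp 0.099 (limma adjusted p = 0.559 for each), Tnmd 0.12 (limma adjusted p = 0.584) and Tnc 0.096 (limma adjusted p = 0.661). For Egr2 it hardly changed, at 0.118. A block by number takes up what same-numbered samples share, and sample 3 was the lowest of both groups for all 9 genes. The lower standard errors are therefore not a separate observation. The share of all genes with a lower standard error under the block was not counted. Same-numbered differences, castrated minus sham, were positive in all 3 for Mkx, Tnmd, Comp, Tnc and Chad. They were negative in all 3 for Scx and Cilp and mixed for Thbs4 and Egr2. The share of all genes with all 3 differences of the same sign was not counted, and the design does not give the numbers as pairs.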
